A study of Mus musculus with 18 samples.

Results

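The genes described here belong to the antioxidant defence and to the NRF2 pathway, chosen as a list of 40 gene symbols covering the factor and its sensor, glutathione synthesis, the thioredoxin system, peroxiredoxins, superoxide dismutases, catalase, glutathione peroxidases, glutathione transferases and glutaredoxins. Of these, 36 had a probe set of their own among the 18194 genes of the array, and 34 were bright enough to be tested among 11741 genes. Total RNA came from male C57BL/6J mice aged 14 weeks that received the neurotoxin MPTP intraperitoneally at 30 mg/kg once daily for 5 days, or saline. Frontal cortex, striatum and midbrain were taken 4 days after the last MPTP injection, which gave 6 groups of 3 Affymetrix arrays from 3 animals per treatment. The labels call the arrays of a group biological replicates. MPTP is converted by monoamine oxidase B to a cation that the dopamine transporter carries into dopaminergic neurons, where it blocks mitochondrial respiration, so the midbrain holds the cell bodies it reaches and the striatum their terminals.

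NRF2, encoded by Nfe2l2, is a transcription factor that KEAP1 holds in the cytoplasm and directs to degradation. When oxidants or electrophiles modify KEAP1, NRF2 accumulates in the nucleus and binds antioxidant response elements near genes for glutathione synthesis, quinone reduction and thioredoxin recycling. NRF2 activity is set largely at the protein level, which these arrays do not measure, and in brain many of its targets are expressed more in glia than in neurons.

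All values are log2 expression, so a difference of 1 is a doubling, and a gene was called when its limma p, adjusted by Benjamini-Hochberg over all 11741 genes, was under 0.05. Array medians lay between 5.14 and 5.21 and interquartile ranges between 3.37 and 3.65. The tissues carried their labelled markers: summed striatal spiny neuron markers were 14.6 to 14.8 on striatal arrays and at most 11.0 elsewhere, summed cortical glutamatergic markers were at least 11.2 in frontal cortex and at most 9.77 elsewhere, and summed dopaminergic markers were 12.1 to 12.4 in midbrain and at most 10.3 elsewhere. Slc7a11, the cystine carrier, lay between 4.07 and 5.04 on every array and was not tested, and neither was Glrx3, whose own probe set lay between 4.47 and 5.18. Brighter probe sets read Glrx3 together with Gm12669, at means up to 7.86, and it was not named from them. Prdx1 was read only by probe sets shared with Gm21399 and was not named from them. Prdx5, Prdx6 and Ucp2 were not listed with a probe set. Nqo1 passed the brightness filter of 5.18 through the midbrain alone.

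Promoter sequence is shown for the 3 genes that rose together after MPTP in striatum and midbrain, and for Gclm. Gclm is a classical NRF2 target that was not called with its probe set of highest mean. Each is the 250 bases before a RefSeq start site in GRCm38.p6, read 5′ to 3′ on the gene's strand, and capitals mark the core of the antioxidant response element, TGACNNNGC, on either strand. The Nfe2l2 stretch is chr2:75704664-75704913 (minus strand), Cat is chr2:103485154-103485403 (minus), Mgst1 is chr6:138140277-138140526 (plus) and Gclm is chr3:122245307-122245556 (plus).
Nfe2l2: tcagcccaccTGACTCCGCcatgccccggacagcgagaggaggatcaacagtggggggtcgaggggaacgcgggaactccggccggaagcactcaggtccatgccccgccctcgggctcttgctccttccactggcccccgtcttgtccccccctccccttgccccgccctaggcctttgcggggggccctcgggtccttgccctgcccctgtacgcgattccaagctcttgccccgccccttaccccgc
Cat: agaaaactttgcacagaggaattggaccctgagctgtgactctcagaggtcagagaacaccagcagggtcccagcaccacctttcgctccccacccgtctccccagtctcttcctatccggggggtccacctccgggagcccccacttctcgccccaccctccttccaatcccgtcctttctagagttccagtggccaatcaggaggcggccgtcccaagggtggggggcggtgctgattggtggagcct
Mgst1: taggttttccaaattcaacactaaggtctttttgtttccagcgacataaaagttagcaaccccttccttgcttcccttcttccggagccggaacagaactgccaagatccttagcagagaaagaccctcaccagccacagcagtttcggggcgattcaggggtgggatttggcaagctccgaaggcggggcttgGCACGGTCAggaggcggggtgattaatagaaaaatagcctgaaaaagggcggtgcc
Gclm: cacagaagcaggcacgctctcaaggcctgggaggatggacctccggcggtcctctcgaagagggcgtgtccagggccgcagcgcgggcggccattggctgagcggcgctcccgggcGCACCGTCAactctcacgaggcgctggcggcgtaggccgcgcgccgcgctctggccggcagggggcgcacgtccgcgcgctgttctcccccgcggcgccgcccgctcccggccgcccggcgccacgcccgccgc

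The core stood 240 to 232 bases before the start site of Nfe2l2, 56 to 48 before that of Mgst1 and 134 to 126 before that of Gclm, while the Cat window held no match. A further RefSeq start of Mgst1 had none, and neither did the window of Nqo1, which is not shown. Among the listed genes 34 had a RefSeq promoter window (250 bases before to 50 after the start), and 9 of these, or 26.5%, held TGACNNNGC, against 14.0% of 27025 genes with a window. Among tested genes the share was 7 of 29 listed ones, or 24.1%, against 16.7% of all. The other listed genes with a match were Srxn1, Gstm5, Prdx1, Ucp2, Txnrd1 and Sod1, and in Prdx1 the match overlapped an AP-1 motif (TGACTCA or TGAGTCA). A wider form that also takes TGAGNNNGC was searched after these counts were seen: it was found in 12 of the 34 listed genes, or 35.3%, against 30.8% of all genes. The gap between listed and other genes was therefore smaller with the wider form. A match describes letters in the window only.

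After MPTP the same 3 listed genes were called in striatum and in midbrain, all of them higher: Nfe2l2, Cat and Mgst1. In striatum 3 of 34 listed genes were called, where 2.10% of all tested genes were, and in midbrain 3 of 34 were called, where 2.54% of all tested genes were. An unadjusted p under 0.05 was reached by 11 of 34 (32.4%) in each, against 16.3% and 16.6% of all tested genes. Of these Gsr, Txn2, Txnrd2, Sod1 and Gsta4 were lower in striatum. Sod3 and, with its probe set of highest mean, Gclm were lower in midbrain. The others were higher. In frontal cortex limma called 0 of 34, with 4 at an unadjusted p under 0.05 (11.8%, against 6.13% of all tested genes), and 0.0681% of all tested genes were called there. The median difference of the 34 listed genes was -0.02 in striatum against -0.03 for all genes, 0.05 in midbrain against 0.03, and 0.04 in frontal cortex against 0.04. The median of the list stayed within 0.03 of the median of all genes in each region.

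**Figure D1:**
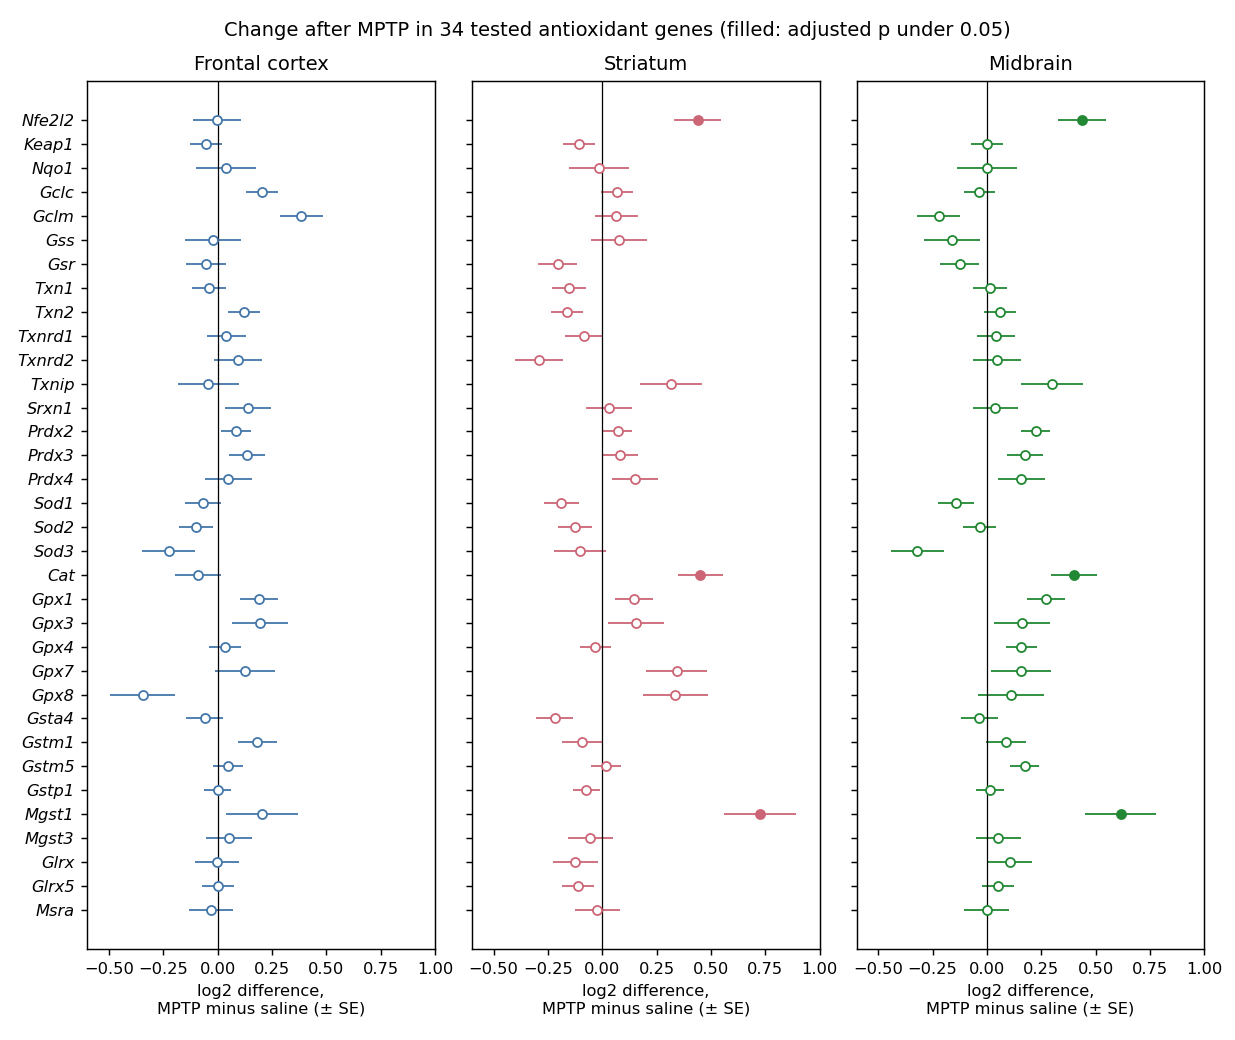
Log2 difference (MPTP minus saline, x axis) of the 34 tested antioxidant genes (y axis) in frontal cortex, striatum and midbrain, with bars of 1 standard error from the limma fit and filled points where the adjusted p was under 0.05. Nfe2l2, Cat and Mgst1 are filled in striatum and midbrain, and no point is filled in frontal cortex.

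Nfe2l2, the NRF2 gene itself, read 6.58, 6.44 and 6.52 on the saline striatal arrays and 7.05, 6.90 and 6.91 on the MPTP ones. In midbrain it read 7.09, 6.85 and 7.25 with saline and 7.44, 7.49 and 7.59 with MPTP. In both regions every MPTP array lay above every saline array. Separate groups, in either direction, were common: 11 of 34 listed genes had them in striatum, 8 in midbrain and 6 in frontal cortex. Of all tested genes 23.2%, 16.3% and 13.3% did. The Nfe2l2 difference was 0.44 (SE 0.11) in striatum, a 1.35-fold rise, with an adjusted p of 0.0365 in limma. In midbrain it was 0.44, with an adjusted p of 0.0325. In frontal cortex the saline arrays read 6.49, 6.27 and 6.53 and the MPTP arrays 6.47, 6.29 and 6.52, so the groups overlapped almost entirely. Keap1, which encodes the sensor that restrains NRF2, was not called in any region, with differences of -0.05 (frontal cortex), -0.11 (striatum) and -0.00 (midbrain). A dim second probe set of Nfe2l2, at a mean of 3.37, gave 0.15 in striatum and -0.16 in midbrain.

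Cat encodes catalase, the peroxisomal enzyme that splits hydrogen peroxide. It read 7.24, 7.53 and 7.32 on saline striatal arrays and 7.76, 7.79 and 7.89 on MPTP ones. The midbrain arrays read 8.38, 8.06 and 8.21 with saline and 8.42, 8.80 and 8.64 with MPTP. The groups did not overlap in either region, although the lowest midbrain MPTP array stood just above the highest saline one. Cat rose by 0.45 (SE 0.11, 1.37-fold) in striatum and by 0.40 in midbrain (1.32-fold), with limma adjusted p of 0.0242 and 0.0415. A second bright Cat probe set differed in the same direction, by 0.31 in striatum and 0.63 in midbrain. In frontal cortex Cat read 7.68, 7.46 and 7.65 with saline and 7.43, 7.54 and 7.54 with MPTP, a difference of -0.09.

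Mgst1, a membrane-bound glutathione transferase that also reduces lipid peroxides, had the largest differences among the 34 genes in striatum and midbrain. Striatal saline arrays read 7.41, 7.56 and 7.50 and MPTP arrays 8.68, 7.99 and 7.99. MPTP replicate 1 therefore stood well above the others, and all 3 were above the saline range. Midbrain saline arrays read 8.70, 8.12 and 8.33 and MPTP arrays 9.15, 8.75 and 9.10, again without overlap. The difference was 0.72 (SE 0.16, 1.65-fold) in striatum and 0.61 (1.53-fold) in midbrain, with limma adjusted p of 0.0224 and 0.0456. Without the high striatal array, MPTP replicate 1, the striatal difference was 0.49 and its adjusted p 0.127. Frontal cortex read 6.93, 6.44 and 6.50 with saline and 6.94, 6.70 and 6.85 with MPTP, and the difference of 0.20 was not called. The other Mgst1 probe set was dim, at a mean of 3.47, and gave -0.09 in both striatum and midbrain.

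These calls sat close to the threshold. Leaving out 1 array of the region ended the striatal call for 4 of 6 arrays with Cat, 4 of 6 with Mgst1 and 5 of 6 with Nfe2l2, at adjusted p up to 0.107, 0.127 and 0.142. In midbrain it ended 4 of 6 for each gene, at adjusted p up to 0.196, 0.228 and 0.207. The striatal arrays concerned were saline 1 and 3 and MPTP 1 and 3 for Cat, all saline arrays and MPTP 1 for Mgst1, and all but MPTP 2 for Nfe2l2. The midbrain ones were saline 2 and 3 and MPTP 2 and 3 for Cat, saline 2 and 3 and MPTP 1 and 3 for Mgst1, and saline 2 and all MPTP arrays for Nfe2l2. The sign held in all of these fits. Averaging each gene's probe sets, dim ones included, gave 0.14 for Nfe2l2 in midbrain (limma adjusted p = 0.533) and, for Mgst1, 0.32 in striatum (adjusted p = 0.152) and 0.26 in midbrain (adjusted p = 0.240).

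**Figure D2:**
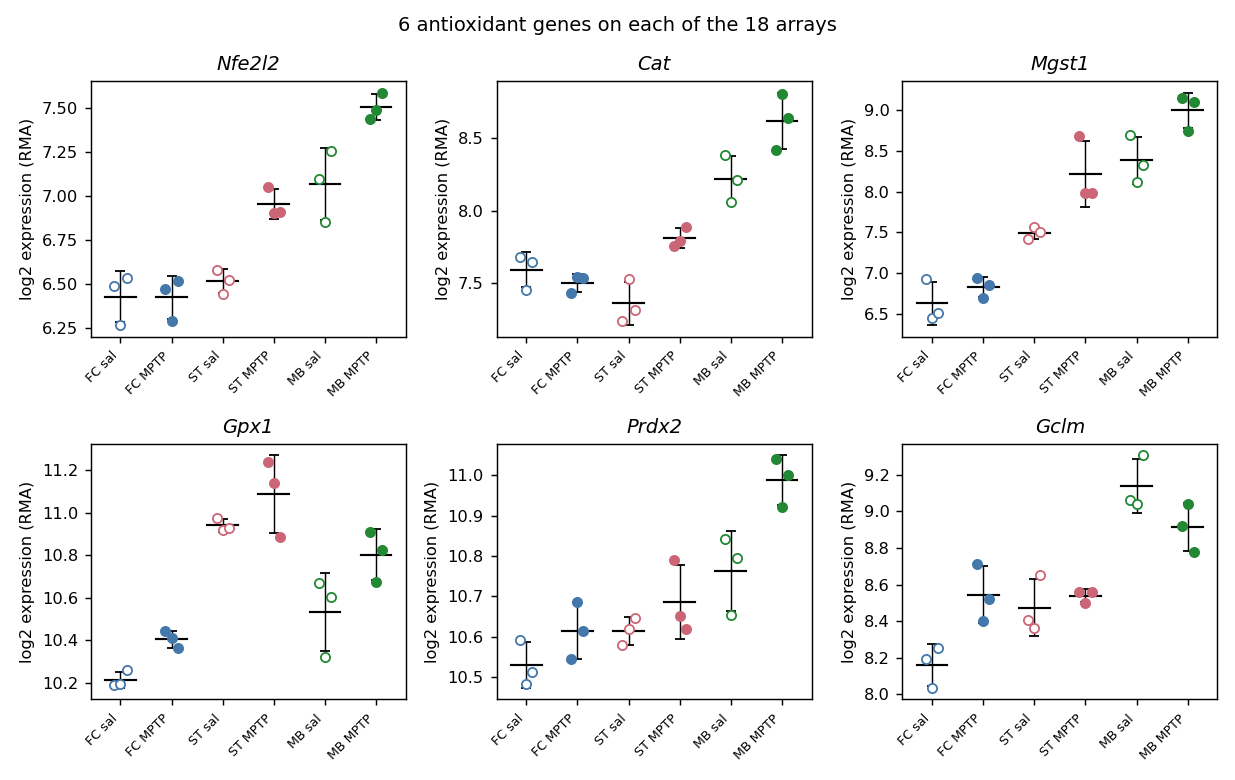
Log2 expression (y axis) of Nfe2l2, Cat, Mgst1, Gpx1, Prdx2 and Gclm on each of the 18 arrays, by region (FC frontal cortex, ST striatum, MB midbrain) and treatment (sal, saline, open points; MPTP, filled points), with the mean and 1 SD of each group of 3. For Nfe2l2, Cat and Mgst1 the MPTP points lie above the saline points in striatum and midbrain and overlap them in frontal cortex.

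Whether the response differed between regions was tested directly. Limma called 0 of 34 listed genes for striatum minus frontal cortex (0.0596% of all tested genes), 0 for midbrain minus frontal cortex (0% of all) and 0 for midbrain minus striatum (0.0681% of all), with 8, 5 and 2 of them at an unadjusted p under 0.05. These are 23.5%, 14.7% and 5.88% of the 34, against 7.75%, 4.97% and 5.89% of all tested genes. The response of Cat was larger in striatum than in frontal cortex by 0.54 (95% interval 0.23 to 0.85, limma adjusted p = 0.325). For Nfe2l2 that difference was 0.44 (0.12 to 0.76, adjusted p = 0.523) and for Mgst1 0.52 (0.04 to 1.002, adjusted p = 0.618). For midbrain minus frontal cortex Cat gave 0.49 (0.18 to 0.80), Nfe2l2 0.44 (0.12 to 0.76) and Mgst1 0.41 (-0.07 to 0.89). The largest striatum minus frontal cortex value was 0.68 for Gpx8 (adjusted p = 0.442), whose saline striatal mean of 5.29 lay near the filter value. The lowest for midbrain minus frontal cortex was -0.61 for Gclm (adjusted p = 0.356), a gene whose probe sets disagreed in midbrain. The calls in striatum and midbrain and their lack in frontal cortex are thus not shown to be a regional difference.

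Averaged over the 3 regions, 5 of 34 listed genes were called, all higher, where 9.04% of all tested genes were called. They were Mgst1 at 0.51 (limma adjusted p = 0.00173), Nfe2l2 at 0.29 (adjusted p = 0.00619), Cat at 0.25 (adjusted p = 0.0109), Gpx1 at 0.20 (adjusted p = 0.0141) and Prdx2 at 0.13 (adjusted p = 0.0425). Gpx1, the abundant cytosolic glutathione peroxidase, read 10.19, 10.20 and 10.26 on saline and 10.45, 10.41 and 10.37 on MPTP frontal cortex arrays. Its striatal arrays read 10.98, 10.92 and 10.93 with saline and 11.24, 11.14 and 10.89 with MPTP, and its midbrain arrays 10.67, 10.32 and 10.61 with saline and 10.91, 10.68 and 10.83 with MPTP. The MPTP arrays were the higher ones without overlap in frontal cortex and midbrain, and overlapped the saline arrays in striatum.

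Prdx2, a cytosolic peroxiredoxin that reduces hydrogen peroxide through thioredoxin, read 10.84, 10.65 and 10.80 on saline and 11.04, 10.92 and 11.00 on MPTP midbrain arrays. Its frontal cortex arrays read 10.59, 10.48 and 10.51 with saline and 10.54, 10.69 and 10.61 with MPTP, and its striatal arrays 10.58, 10.62 and 10.65 against 10.79, 10.65 and 10.62. Only the midbrain groups were separate. Its second probe set gave 0.05 over the regions, and the call was lost in 9 of 18 fits that left out 1 array, at adjusted p up to 0.145.

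Glutathione synthesis and recycling showed no call with the probe sets of highest mean. Gclc, the catalytic subunit of glutamate cysteine ligase, differed by 0.20 (frontal cortex), 0.07 (striatum) and -0.04 (midbrain). Gclm, its modifier subunit, read 8.19, 8.04 and 8.25 on saline and 8.71, 8.40 and 8.52 on MPTP frontal cortex arrays, separate groups with a difference of 0.38 (SE 0.10, limma adjusted p = 0.242). In midbrain it read 9.06, 9.04 and 9.31 with saline and 8.92, 9.04 and 8.78 with MPTP, a difference of -0.22. The 2 Gclm probe sets disagreed there: the second, at a mean of 7.36, gave 0.47 in midbrain, 0.27 in striatum and 0.17 in frontal cortex. In a limma fit over all 34958 probe sets of 1 gene, added after the data were seen, its adjusted p was 0.0344 in midbrain and 0.00809 over the regions (0.30), so whether Gclm is called depends on the probe set. No direction is given for Gclm in midbrain. Gss, glutathione synthetase, lay between -0.16 and 0.08 over the regions, and Gsr, glutathione reductase, between -0.21 and -0.05.

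Other widely used NRF2 targets had differences near 0. Nqo1, the quinone reductase, differed by 0.04 in frontal cortex, -0.02 in the striatum and -0.00 in the midbrain, at levels of 4.34 to 5.37 that were mostly below the filter value. Srxn1, sulfiredoxin, which restores overoxidised peroxiredoxins, differed by 0.14, 0.03 and 0.04. Txnrd1, the cytosolic thioredoxin reductase, differed by 0.04, -0.08 and 0.04. Their limma adjusted p lay between 0.523 and 0.999 in these comparisons and in the mean over regions. Txnip, an inhibitor of thioredoxin, had differences of -0.04, 0.32 and 0.30 that were not called. Txn1, Txn2, Txnrd2, Prdx3, Prdx4 and Sod2 were not called in any region or in the mean over regions. Among them Txnrd2 differed by 0.09, -0.29 and 0.04 (limma adjusted p = 0.177 in striatum).

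Superoxide dismutases had negative differences in every region that did not pass the threshold. Sod3, the extracellular enzyme, read 6.75, 7.08 and 7.12 on saline and 6.67, 6.77 and 6.55 on MPTP midbrain arrays, groups that overlapped slightly, with a difference of -0.32 (limma adjusted p = 0.162). Over the regions Sod3 differed by -0.22 (adjusted p = 0.0548) and Sod1, the cytosolic enzyme, by -0.13 (adjusted p = 0.0860). Among peroxidases, Gpx3, Gpx4, Gpx7 and Gpx8 had no call, and neither did the transferases Gsta4, Gstm1, Gstm5, Gstp1 and Mgst3, nor Glrx, Glrx5 and the methionine sulfoxide reductase Msra. Some of their differences were not near 0. Gpx8 differed by -0.35 in frontal cortex and 0.34 in striatum (limma adjusted p = 0.780 and 0.266). In striatum Gpx7 differed by 0.34 and Gsta4 by -0.22 (limma adjusted p = 0.210 and 0.192).

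Some genes of the wider pathway were called as well. Of 36 other oxidant defence and glutathione genes 0 were called by limma in frontal cortex, with 3 at an unadjusted p under 0.05. Of 25 tested further NRF2 targets and partners, limma called 0 in cortex and 0 in striatum, and in midbrain it called 1, the export pump Abcc4, at 0.67 (adjusted p = 0.0424), with 2, 6 and 3 of the 25 at an unadjusted p under 0.05. Among those 36 genes 3 were called in striatum, where 2.10% of all tested genes were: Gsto1, a glutathione transferase of the omega class, rose by 0.35 (adjusted p = 0.0141), Selenop, the selenium carrier protein, rose by 0.40 (adjusted p = 0.0173), and Gpx6 fell by 0.60 (adjusted p = 0.0277). Selenop was also called in midbrain, at 0.33 (adjusted p = 0.0399), the 1 call among the 36 there, against 2.54% of all tested genes. Over the regions 2 of the 25 further targets, 5 of the 36 other defence genes and 1 of the 3 NADPH oxidase genes were called, against 9.04% of all tested genes. Selenop, Abcc4, Gsto1, Fth1 (the ferritin heavy chain), Chac2 (a glutathione-degrading enzyme), Sesn3 (a sestrin) and Cyba (an NADPH oxidase subunit) were called higher. Ccs, the copper chaperone for SOD1, was called lower, at -0.23 (limma adjusted p = 0.0196). Of the 3 NADPH oxidase genes tested, limma called 0 in each single region, with Cyba in striatum at 0.40 (adjusted p = 0.113) the only one at an unadjusted p under 0.05. Hmox1, the haem oxygenase gene that is a standard NRF2 readout, had group means of 4.78 to 5.07, below the filter value.

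Markers of several cell types also differed after MPTP. Of all tested genes 2.10% were called in striatum, 2.54% in midbrain and 0.0681% in frontal cortex. In bulk tissue fewer cells of a type and less RNA per cell cannot be told apart, nor can more of either. In striatum 4 of 12 astrocyte markers, 5 of 13 microglia and macrophage markers and 5 of 9 oligodendrocyte markers were called higher after MPTP, Gfap among them at 1.17. The summed astrocyte level was 13.99 to 14.05 with saline and 14.11 to 14.34 with MPTP, the microglial level 12.2 to 12.3 and 12.4 to 12.8, and the oligodendrocyte level 14.46 to 14.52 and 14.69 to 14.78. In midbrain 2 of 12 astrocyte and 2 of 13 microglial markers were called higher, with astrocyte sums of 14.31 to 14.51 and 14.55 to 14.60. Of 9 oligodendrocyte markers in midbrain 0 were called higher and 1 lower, Opalin, at -0.74 (limma adjusted p = 0.0103). In frontal cortex limma called 0 of these markers, with 1 astrocyte, 6 microglial and 1 oligodendrocyte marker at an unadjusted p under 0.05. There 10 of 12 astrocyte, 11 of 13 microglial and 3 of 9 oligodendrocyte markers had differences above 0. The frontal cortex astrocyte sums were 14.06 to 14.11 with saline and 14.15 to 14.20 with MPTP, also without overlap. Its microglial sums were 11.94 to 11.99 and 11.99 to 12.29, and overlapped slightly. Of 8 endothelial markers 2 were called higher in striatum, Vwf at 0.93 and Slco1a4 at 0.44. Of 9 pan-neuronal markers Syn1 was called lower in striatum. Of 8 tested dopaminergic markers limma called 0 in each single region. In midbrain 6 of these 8 lay below 0 and 2 above, with a median of -0.11, and 3 had an unadjusted p under 0.05. Summed dopaminergic levels in midbrain were 12.11 to 12.38 with saline and 12.13 to 12.24 with MPTP, so these groups overlapped. Summed blood cell markers, mostly below the filter value, were 6.82 to 7.12 with saline and 7.51 to 7.99 with MPTP in midbrain. They were 6.98 to 7.14 and 7.27 to 7.70 in frontal cortex, and 6.76 to 7.10 and 6.88 to 7.47 in striatum. Choroid plexus sums in striatum ran from 10.3 to 10.7 with saline and from 8.23 to 10.4 with MPTP. Of 7 cortical glutamatergic markers in striatum 0 were called and 7 lay below 0, with a median of -0.33. Slc17a6, a midbrain and thalamic marker, was called lower there, at -0.74 (limma adjusted p = 0.019). MPTP replicate 1, the highest striatal array for Mgst1, had the lowest striatal cortical (8.38) and choroid plexus (8.23) sums. Its microglial (12.8), endothelial (10.9) and blood cell (7.47) sums were the highest in striatum. The part of these cell types in the rise of Nfe2l2, Cat and Mgst1 was not tested.

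**Figure D3:**
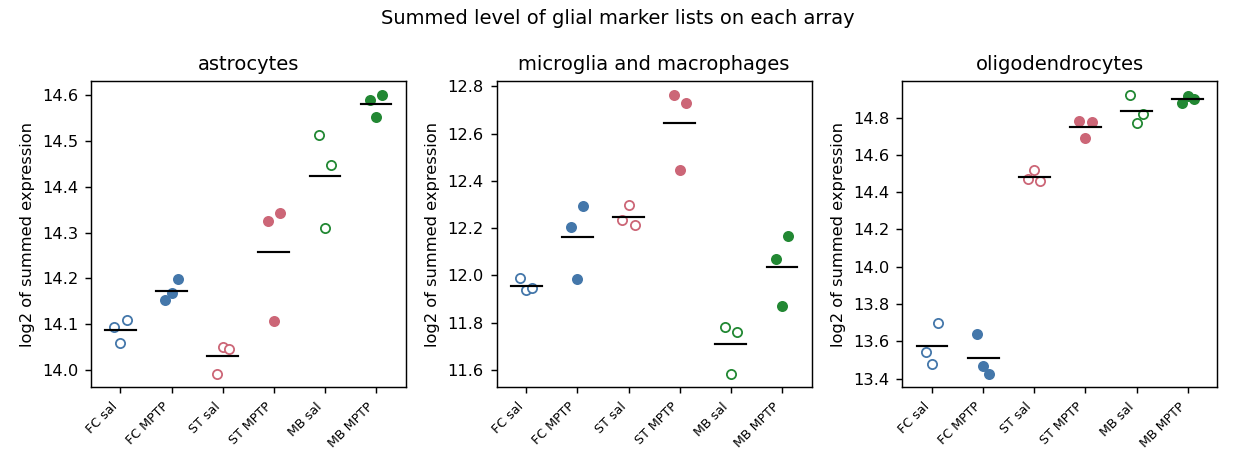
Log2 of the summed expression (y axis) of astrocyte, microglia and macrophage, and oligodendrocyte marker lists on each array, by region (FC frontal cortex, ST striatum, MB midbrain) and treatment (sal, saline, open points; MPTP, filled points), with lines at the group means. In striatum all 3 MPTP arrays lie above all 3 saline arrays for each list. The same holds for astrocytes in frontal cortex and midbrain, and for microglia and macrophages in midbrain.

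Between regions of saline animals the listed genes differed far more than they did after MPTP, and midbrain was most often the highest. For midbrain minus frontal cortex 22 of 34 were called, 20 of them higher, where 51.3% of all tested genes were called. For midbrain minus striatum 24 were called, 19 of them higher, against 58.2% of all genes, and for striatum minus frontal cortex 19 were called, 11 of them higher, against 44.0%. The median difference of the listed genes was 0.27 for midbrain minus frontal cortex, against 0.02 over all genes, and 0.27 for midbrain minus striatum, against 0.05. In striatum minus frontal cortex it was 0.01, against -0.00. The groups did not overlap for 23 listed genes in midbrain and frontal cortex, 27 in midbrain and striatum and 20 in striatum and frontal cortex. Of all tested genes 52.2%, 59.6% and 56.1% were separate in this way. Of the 34 genes, 21 had their highest mean in midbrain, 9 in striatum and 4 in frontal cortex, and 13 were called above both other regions in midbrain, 3 in striatum and 0 in frontal cortex. Over all tested genes 40.6% had their highest mean in midbrain, 31.4% in striatum and 28.0% in frontal cortex, and 20.3%, 11.7% and 10.4% were called above both others. Nqo1 is among these counts although it was tested only through its midbrain level. Without it 21 of 33 were called for midbrain minus frontal cortex, 19 of them higher, 18 for striatum minus frontal cortex, 10 of them higher, and 20 of 33 had their highest mean in midbrain.

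Gpx3, the secreted glutathione peroxidase, had the largest regional difference. Its saline arrays read 8.84, 8.51 and 8.68 in midbrain, 6.62, 6.11 and 6.40 in frontal cortex and 5.96, 6.02 and 6.20 in striatum. Midbrain stood far above the other regions, by 2.29 over frontal cortex (4.91-fold, limma adjusted p = 2.48e-13) and by 2.61 over striatum (6.12-fold). Frontal cortex and striatum overlapped, and their difference of -0.32 lost its call in 4 of 6 fits that left out 1 array, at adjusted p up to 0.271.

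Mgst1, Cat and Nfe2l2 were also highest in saline midbrain. Mgst1 was 1.76 higher in midbrain than in frontal cortex (3.39-fold, limma adjusted p = 2.53e-09) and 0.89 higher than in striatum, which was itself 0.87 above frontal cortex, so its 3 regions were ordered without overlap. With probe sets averaged, dim ones included, the Mgst1 differences were 0.96, 0.53 and 0.43, all still called. Cat was 0.62 higher in midbrain than in frontal cortex and 0.85 higher than in striatum, and striatum and frontal cortex did not differ beyond the threshold (adjusted p = 0.0798). Nfe2l2 was 0.64 above frontal cortex and 0.55 above striatum in midbrain, while those lower 2 regions differed by 0.09 (adjusted p = 0.561). Averaged probe sets gave 0.37 and 0.36 for Nfe2l2 in midbrain, both still called. Keap1 was lower in midbrain than in frontal cortex by 0.19 (adjusted p = 0.0383), a call that was lost in 5 of 6 fits that left out 1 array and with the replicate number as a block (adjusted p = 0.0589).

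Striatum had the lowest levels of several glutathione-linked enzymes. Gsta4, a transferase that conjugates the lipid peroxidation product hydroxynonenal, read 7.72, 7.95 and 7.85 in saline striatum, 8.84, 8.82 and 8.80 in frontal cortex and 9.81, 9.46 and 9.70 in midbrain. Its 3 regions were fully separate, with midbrain 1.82 above striatum (3.52-fold, limma adjusted p = 6.34e-15). Glrx, the cytosolic glutaredoxin, was 1.05 lower in striatum than in frontal cortex (a difference of -1.05) and 1.44 higher in midbrain than in striatum. Mgst3 differed by -1.04 between striatum and frontal cortex and by 0.83 between midbrain and striatum. With a gene's probe sets averaged these were -0.53 and 0.44, both still called.

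Other enzymes were highest in striatum. Txnrd1 was 0.74 above frontal cortex (1.67-fold, limma adjusted p = 2.06e-07) and midbrain 0.36 below striatum (a difference of -0.36). With averaged probe sets Txnrd1 gave 0.47 and -0.24, both still called. Gpx1 was 0.73 above frontal cortex, with midbrain at -0.41 against striatum, and Gsr was 0.35 above frontal cortex, with midbrain at -0.39. Gclm was highest in midbrain, 0.97 above frontal cortex. Prdx3 and Prdx4 were also highest in midbrain, 0.57 and 0.32 above frontal cortex and 0.27 and 0.76 above striatum, all called. The Prdx4 call over frontal cortex was lost in 2 of 6 fits that left out 1 array. That of Prdx3 over striatum was lost in 1 of 6. Sod2 was 0.28 higher in midbrain than in striatum, and Txn2 lower, at -0.25. Txnrd2 was lower in striatum than in frontal cortex, at -0.39. Each was called. Msra, which repairs oxidised methionine, was the clearest exception in midbrain, at -0.64 against frontal cortex and -0.65 against striatum (limma adjusted p = 1.19e-05 and 9.64e-06). Nqo1 was 0.65 higher in midbrain than in frontal cortex, but it was tested only because of its midbrain level.

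**Figure D4:**
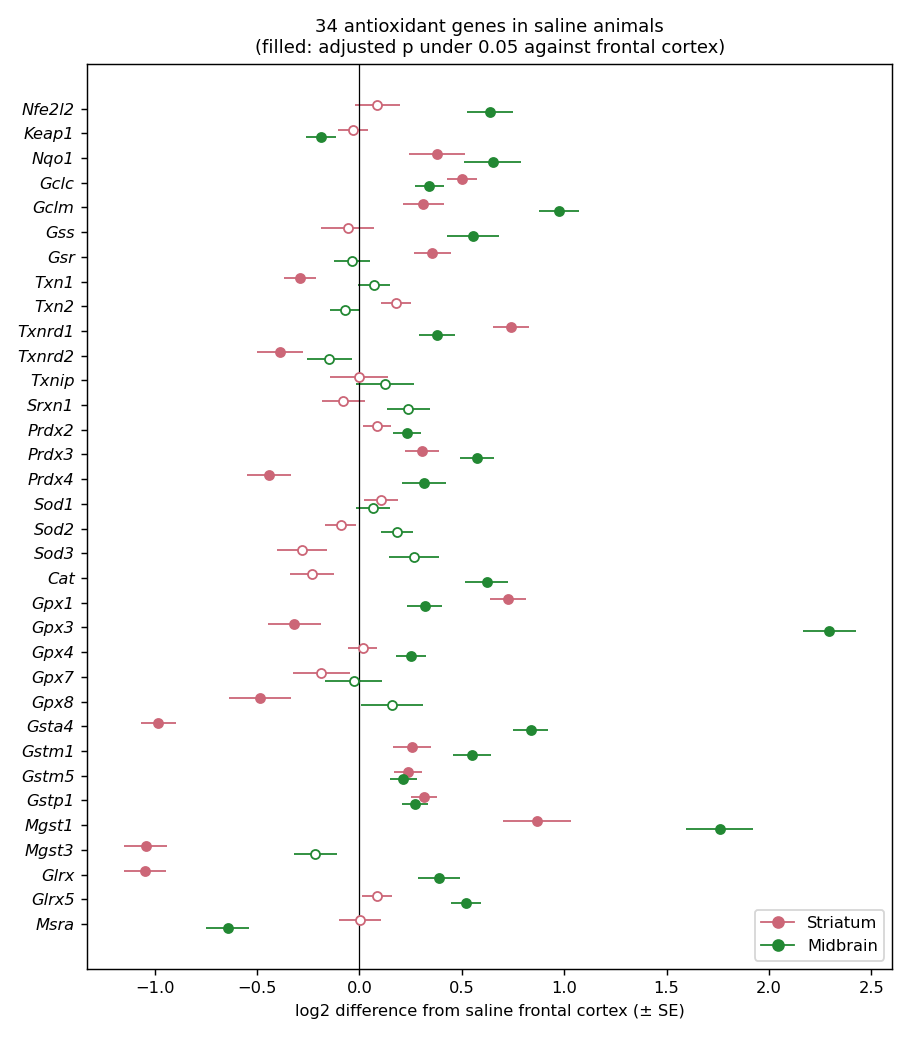
Log2 difference from saline frontal cortex (x axis) of the 34 tested antioxidant genes (y axis) in saline striatum and saline midbrain, with bars of 1 standard error and filled points where the limma adjusted p was under 0.05. Gpx3 at 2.29 and Mgst1 at 1.76 in midbrain lie farthest to the right, and Gsta4, Mgst3 and Glrx in striatum farthest to the left.

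Cell type markers also differed between these regions. All 9 oligodendrocyte markers were called higher in midbrain than in frontal cortex, with a median of 2.06, and of 12 astrocyte markers 9 were called higher there and 2 lower (Slc1a3 and Slc1a2), with a median of 0.52. Of 13 microglial markers 7 were called lower in midbrain than in frontal cortex. Against striatum, midbrain had 9 of 9 oligodendrocyte markers called higher, 9 of 12 astrocyte markers called higher and 2 lower, and 11 of 13 microglial markers called lower. In striatum against frontal cortex 9 of 9 oligodendrocyte, 5 of 13 microglial and 1 of 12 astrocyte markers were called higher, and 7 of 9 pan-neuronal and 3 of 12 astrocyte markers lower. Of all tested genes 51.3% were called for midbrain minus frontal cortex, 58.2% for midbrain minus striatum and 44.0% for striatum minus frontal cortex. The microglial count for midbrain minus frontal cortex lay near that share. The microglial and astrocyte counts for striatum minus frontal cortex lay below it. The part of cell composition in the regional levels was not tested. Of the other bright probe sets of called genes, 10 of 12 had the same sign for striatum minus frontal cortex, 11 of 11 for midbrain minus frontal cortex and 18 of 18 for midbrain minus striatum, and the exceptions belonged to Gclm and Txn1.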

How the data were processed

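The authors deposited 1 log2 value per probe set and array, made with RMA per the submitters' processing notes (version not given in the sources used here). This method brings arrays to one distribution, so a shift of all genes would not show. Of 45101 probe sets 34958 named 1 gene, 932 several and 9211 were unlisted. Where a gene had several probe sets, that with the highest mean of 18 arrays stood for it, and the gene was tested if any region's mean was at least 5.18, the median over probe sets. Limma 3.58.1 in R 4.3.3 fitted 6 group means over all 18 arrays with an intensity trend (12 residual degrees of freedom). The fit was also run on simulated arrays with independent noise, which cannot address arrays that share an animal. The mean over regions took the animal (treatment and replicate number) as a random block (correlation 0.00558), an assumption, since no label ties a number to 1 animal. All other comparisons, those between regions included, had no animal term in the main fit and took the 18 arrays as independent. Deviations of same-numbered saline arrays correlated at 0.225 to 0.342 between frontal cortex and midbrain, but not throughout between striatum and either. Interquartile ranges by number were also alike in saline frontal cortex (3.609, 3.38, 3.593) and midbrain (3.61, 3.37, 3.589), unlike striatum (3.395, 3.568, 3.512). Whether the correlation reflects shared animals was not tested. The number of arrays, 3 per group, limits precision.

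Every listed gene is named, and other genes only as called genes of the pathway lists, markers, or where a result turned on them. The members and lists were chosen with earlier results of these data known. Promoter windows came from RefSeq and matched 34 of the 40 symbols. No motif was set in advance: TGACNNNGC was searched first and the wider form added after its counts were seen.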

Additional observations from a re-analysis of the deposited data

How the results depend on the processing

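The counts of listed genes called for the regions of saline animals, for frontal cortex after MPTP and for the 3 regional differences in response stayed within 1.5 times their value under every alternative run. No difference of a gene called in the main fit changed sign. Signs were followed for those genes only, so none was for frontal cortex after MPTP or the regional differences in response. The striatal count of 3 became 5 with quantile normalization again and 0 when a gene's probe sets were averaged. The midbrain count of 3 became 1 without the filter, 1 with the mean over probe sets, 1 without an intensity trend and 1 with the arrays of the region alone. The mean-over-regions count of 5 became 10 with quantile normalization again. Leaving out 1 array gave 0 to 3 in striatum, 0 to 6 in midbrain and 3 to 8 for the mean. Midbrain had 0 without saline replicate 2 or MPTP replicate 3, striatum 0 without saline replicate 1, saline replicate 3 or MPTP replicate 1, and the mean 3 without striatum saline replicate 1 or 2.

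Some settings were chosen after seeing the data. When the saline array with the smallest interquartile range was left out of every region, the counts were 1 in striatum and 0 in midbrain, and with that range as a covariate the mean had 10. The share of promoters with the response element core was likewise read with a wider motif added later, which narrowed the gap between listed and other genes.

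With the replicate number as a block (replicate block) the counts were 3 in striatum, 2 in midbrain (Cat not called) and 4 for the mean (Prdx2 not called). Same-numbered arrays of both treatments correlated in their deviations at -0.19 to 0.29 over 9 pairs, 3 of them over 0.1, and were not taken as paired. Same-numbered arrays of different regions within a treatment reached over 0.1 in 11 of 18 pairs. All 3 pairs did so for saline frontal cortex and midbrain (0.225 to 0.342), where the block gave 21 calls instead of 22 (Keap1 not called), and for MPTP striatum and midbrain (0.117 to 0.183). For striatum minus frontal cortex and midbrain minus striatum in saline the block gave 19 and 24, as without it.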
